A study of Mus musculus with 4 samples.

Results

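The enzymes and core subunits that set DNA methylation and Polycomb histone methylation were followed in C3H10T1/2 cells, an established mouse embryo fibroblast line that stops dividing on contact and serves to count foci of cells transformed by chemicals. The set holds 10 genes: Dnmt1, Dnmt3a, Dnmt3b, Uhrf1, Tet1, Tet2, Ezh2, Ezh1, Suz12 and Eed. Every probe that was not a control and that carried one of these gene names was taken, which gave 16 of the 61307 probes of the array. Dnmt3a had 3 probes, Uhrf1, Tet2, Ezh2 and Suz12 had 2 each, and the other 5 genes had 1 each. The exposed cells received 3-methylcholanthrene (3MC), a polycyclic aromatic hydrocarbon that forms DNA adducts, at 2.5 µg/ml for 2 days. After 4 days in fresh medium they were given the phorbol ester TPA (12-O-tetradecanoylphorbol-13-acetate), which promotes tumours and activates protein kinase C, repeatedly at 100 ng/ml through 2 weeks, and were then kept without either agent for 4 weeks. Control cells of the same line were cultured for 6 weeks. Some of the exposed flasks were stained to score transformed foci and others gave the RNA, so the exposed RNA came from whole cultures and not from picked foci, as far as the labels say. RNA of each group was read on 2 arrays in 1 colour. The labels do not state whether a group's 2 arrays hold RNA of separate cultures, and the p-values below therefore cover only the spread from array to array, which may be technical.

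DNA methyltransferases place methyl groups on cytosines, mainly in CpG dinucleotides. Dnmt1 copies the pattern to the new strand after replication and is brought to hemimethylated CpGs by Uhrf1, Dnmt3a and Dnmt3b methylate unmarked DNA, and Tet enzymes oxidise the methyl group, a step towards its removal. Polycomb repressive complex 2 (PRC2) methylates histone H3 on the lysine linked to gene silencing, with Ezh2 or Ezh1 as its catalytic subunit and Suz12 and Eed as the partners that the catalytic subunit needs. In fibroblasts Dnmt1, Uhrf1 and Ezh2 are known to be transcribed more in dividing than in resting cells, while Ezh1 is the form known from resting cells.

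Of the probes behind the results that follow, those of Dnmt1, Uhrf1, Dnmt3a and Ezh2 are printed. They are in the 5′ to 3′ direction as the array files hold them. The Dnmt1 and Uhrf1 probes are shown because both genes lay lower in 3MC+TPA cells than in control cells, though neither passed the test. The Dnmt3a probes are shown because they did not behave alike. Each probe has 60 bases, and the first 30 are given where the whole is not shown. Probes of the same gene share no run longer than 9 bases, so each reads another stretch of the transcript. In RefSeq's table for GRCm38.p6, Dnmt1 lies on mouse chromosome 9, Uhrf1 on 17, Dnmt3a on 12, Dnmt3b on 2, Tet1 on 10, Tet2 on 3, Ezh2 on 6, Eed on 7 and both Ezh1 and Suz12 on 11. The array files give no mapped position for these probes, so no coordinates are printed.
Dnmt1: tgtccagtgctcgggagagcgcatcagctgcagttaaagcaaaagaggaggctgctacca
Uhrf1 probe 1, first 30 bases: gcgagataaatgggtttcctcgatgaattt
Uhrf1 probe 2, first 30 bases: catggaaggcagagatgtgttatcagttcc
Dnmt3a probe 1: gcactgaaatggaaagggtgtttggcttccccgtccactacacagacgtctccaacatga
Dnmt3a probe 2, first 30 bases: gcccggccgtagaattctacagaaacaaca
Dnmt3a probe 3, first 30 bases: ctatatatctctttggttgtctctagcctg
Ezh2 probe 1, first 30 bases: gctgcaaagtgttttgtaccagtgagtttt
Ezh2 probe 2: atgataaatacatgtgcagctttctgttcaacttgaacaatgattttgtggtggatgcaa

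All values below are levels on the log2 scale: log2 of a probe's processed signal minus the 75th percentile of its array. A value of 0 therefore equals that percentile, and levels are compared between arrays for 1 probe, never between probes. The deposited log2 table holds the same values up to a constant per array, and no member value differed from it by more than 0.0146. Of the 16 probes, 15 were well above background on all 4 arrays. On each array 32222 and 32512 spots (3MC+TPA) or 32125 and 32415 spots (control) of 61657 were well above background. Levels correlated at 0.987 between the 3MC+TPA arrays and 0.991 between the control arrays, and at 0.944 to 0.958 between arrays of different groups, across 32030 probes that are not independent replicates.

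None of the 10 genes passed the test across the array, which can miss true changes of this size. Of 16 member probes, 0 reached an adjusted p below 0.05 in limma, against 15.6% of the 32030 probes tested (in 3MC+TPA cells 7.53% were higher and 8.03% lower). At an unadjusted p below 0.05 there were 7 of 16 member probes, against 33.4% of all probes. By the design text's own method, the methods' t-test, calls were made for 0 of the 16 after Benjamini-Hochberg adjustment and 1 of the 16, Suz12 probe 1, without it. Over all 32030 probes that test called 10 higher and 12 lower with adjustment, and 3600 higher and 3688 lower without it. The 2 groups did not overlap at 11 of the 16 probes, 8 of them with 3MC+TPA cells higher and 3 with them lower, against 64.1% of all probes (33.0% higher and 31.0% lower). The median log2 change of the member probes was 0.17 and their median size of change was 0.33, beside 0.01 and 0.34 over all probes. In share of adjusted calls in limma and in median size of change, the members did not stand above the rest of the array.

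**Figure D1:**
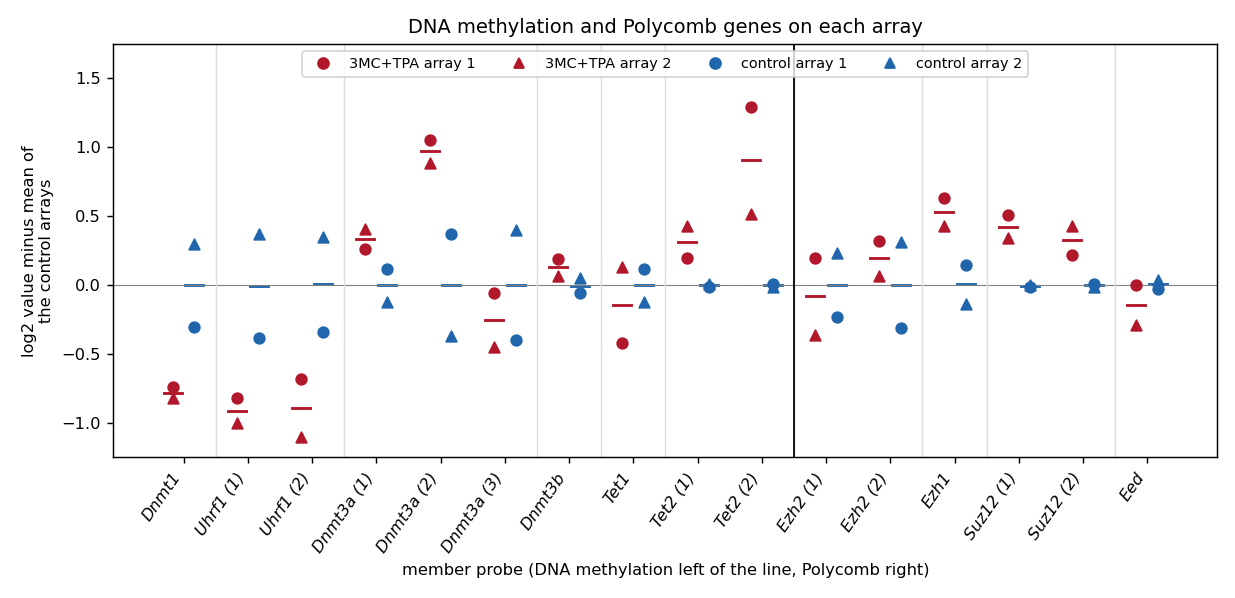
Log2 level of each of the 16 member probes on each array, minus the mean of the control arrays for that probe, with the 3MC+TPA arrays in red left of the control arrays in blue. Circles are array 1, triangles array 2 and bars the group mean, and Dnmt1 and both Uhrf1 probes lie lower on both 3MC+TPA arrays, while the Ezh2 probes overlap between the groups.

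The maintenance pair was lower in 3MC+TPA cells at all 3 of its probes, without passing the test. Dnmt1 had levels of 0.75 and 0.67 on the 3MC+TPA arrays, against 1.19 and 1.79 on the control arrays. Both 3MC+TPA arrays lay below both control arrays, and the control arrays were 0.60 apart. The means were 0.71 ± 0.05 in 3MC+TPA cells and 1.49 ± 0.42 in control cells (SD, n = 2 each), a log2 change of -0.78 ± 0.24 (SE), or 1.72-fold, with an adjusted p of 0.091 in limma. Its 95% confidence interval ran from -1.39 to -0.17.

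Uhrf1, the reader that recognises hemimethylated CpGs, moved the same way at both probes. Probe 1 had levels of 1.51 and 1.33 on the 3MC+TPA arrays and 1.95 and 2.70 on the control arrays. Probe 2 had levels of 0.44 and 0.02 on the 3MC+TPA arrays and 0.78 and 1.47 on the control arrays. The groups did not overlap at either probe, and control array 2 was above control array 1 at both, by 0.75 and 0.69. The log2 changes were -0.91 ± 0.28 (adjusted p = 0.094 in limma) and -0.89 ± 0.29 (adjusted p = 0.10), which is 1.88-fold and 1.85-fold.

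How far this pair lay below control depended on which control array was kept and on the scaling between arrays. With control array 1 left out, Dnmt1 had a log2 change of -1.08 and the Uhrf1 probes of -1.28 and -1.23. With 1 array left in a group, the spread in the fit comes from the other group's 2 arrays, and the lone array is assumed to vary like them. In that fit, which no longer holds the wide gap between the control arrays, all 3 probes had an adjusted p below 0.05. Without control array 2 the changes were -0.48, -0.53 and -0.54, and none passed. A gap between control arrays as wide as that of Dnmt1 was found at 11.5% of all probes tested, and one as wide as that of Uhrf1 probe 1 at 7.3%. With no scaling between arrays, and all arrays kept, the log2 changes were -0.43 for Dnmt1 and -0.56 and -0.54 for the Uhrf1 probes. None passed. The unscaled signals of Uhrf1 probe 2 overlapped, at 952 and 760 in 3MC+TPA cells and 931 and 1640 in control cells. Those of Dnmt1 and Uhrf1 probe 1 did not overlap.

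Genes of DNA replication and S phase, the part of the cycle in which Dnmt1 and Uhrf1 act, showed the same split between the control arrays. Of 28 such genes tested, 4 fell in 3MC+TPA cells (14.3%) and 0 rose, against 8.27% lower and 7.35% higher among all 24944 gene names read by their brightest probe. The median log2 change was -0.87, against -0.01 over all gene names. Pola1, the catalytic subunit of the polymerase that starts new strands, was 3.22-fold lower (log2 change -1.69 ± 0.25, adjusted p = 0.015). Cdc6, which loads the helicase at origins, was 2.83-fold lower (adjusted p = 0.032), and the helicase subunits Mcm4 and Mcm6 were 2.49-fold and 1.94-fold lower (adjusted p = 0.036 and 0.041). With no scaling between arrays Mcm4 and Mcm6 did not pass (log2 changes -0.97 and -0.60). Pcna, the sliding clamp, had a log2 change of -0.41 ± 0.22 and did not pass (adjusted p = 0.25).

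All 28 replication genes had a negative change, and 25 of them did when the arrays were not scaled to each other. All 28 were also higher on control array 2 than on control array 1, by a median of 0.70 on the log2 scale, where all probes had a median gap of -0.02. Without control array 1 their median change was -1.20 and 20 were called lower, in a fit whose spread came from the 3MC+TPA arrays alone. Without control array 2 it was -0.54 and 1 was called lower, and 0 were called lower without either 3MC+TPA array (medians -0.90 and -0.91). Of 10 mitosis genes, 0 were called (1 at an unadjusted p below 0.05, and 0 by the methods' t-test with or without adjustment). Their median change was -0.63, with control array 2 higher in 10 of 10 by a median of 0.97. Without control array 1 that median was -1.13 with 7 called on the same spread, and without control array 2 it was -0.04. The proliferation marker Mki67 had a change of -0.30 ± 0.32 (adjusted p = 0.55). The part of these levels in the values of Dnmt1 and Uhrf1 was not tested. In bulk RNA, fewer dividing cells and less of the transcript per cell cannot be told apart.

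**Figure D2:**
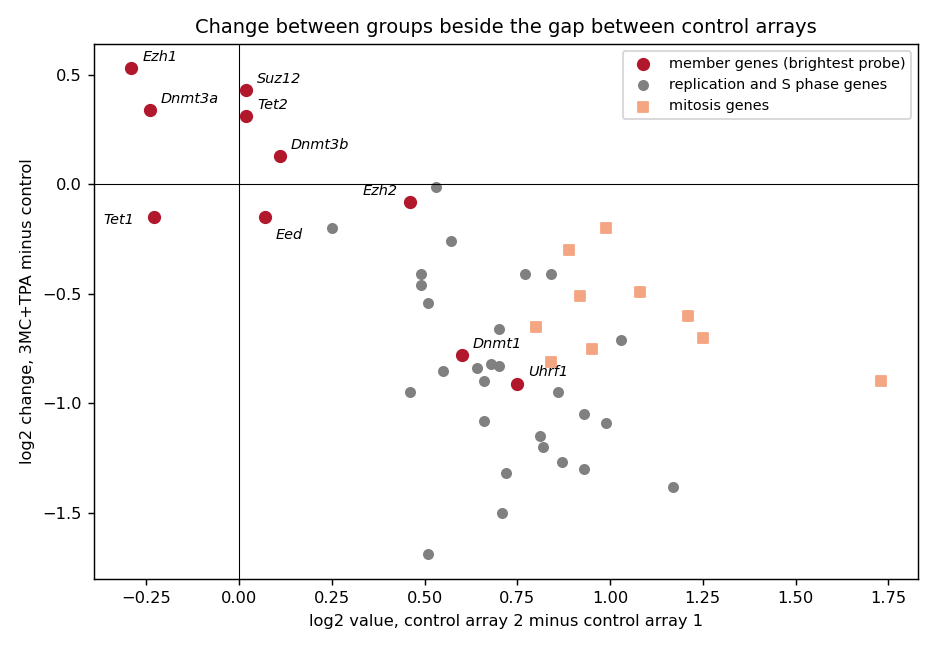
Log2 change, 3MC+TPA minus control (vertical), of the member genes at their brightest probe (red), the replication genes (grey) and the mitosis genes (orange squares), set against the gap between the control arrays, control array 2 minus control array 1 (horizontal). Dnmt1 and Uhrf1, with gaps of 0.60 and 0.75, lie among the replication genes, whose median gap was 0.70 and median change -0.87. Both axes use the control arrays, so a higher value on control array 2 alone moves a gene right and down.

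The de novo methyltransferase Dnmt3a gave different values at its 3 probes, and none of the 3 passed the test. Probe 1 had levels of -0.47 and -0.32 on the 3MC+TPA arrays and -0.61 and -0.85 on the control arrays, a log2 change of 0.34 ± 0.17 (adjusted p = 0.24). Probe 2 had levels of -1.15 and -1.31 on the 3MC+TPA arrays and -1.83 and -2.57 on the control arrays. The groups did not overlap at either of these probes. The change at probe 2 was 0.97 ± 0.28, or 1.96-fold (95% confidence interval 0.26 to 1.69, adjusted p = 0.08), the lowest adjusted p among the members. Its change was 1.35 without control array 1, where the spread again came from the 3MC+TPA arrays alone and the adjusted p was below 0.05, and 0.60 without control array 2.

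At probe 3 of Dnmt3a the groups overlapped, with levels of -2.67 and -3.06 on the 3MC+TPA arrays and -3.01 and -2.21 on the control arrays. Its log2 change was -0.26 ± 0.32 (adjusted p = 0.61). Probes 1 and 2 are listed in the files with both RefSeq transcripts of Dnmt3a and probe 3 with only 1 of them, so the probes need not read the same transcripts. A difference between the 3 probes was not tested.

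Dnmt3b, the other de novo enzyme, had levels of -2.68 and -2.80 on the 3MC+TPA arrays and -2.93 and -2.82 on the control arrays. The groups came within 0.01 of each other, and the log2 change was 0.13 ± 0.16 (95% confidence interval -0.27 to 0.53, adjusted p = 0.61).

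The Tet dioxygenases of the set, Tet1 and Tet2, did not pass either. Tet1 had levels of -2.69 and -2.14 on the 3MC+TPA arrays and -2.15 and -2.39 on the control arrays, so the groups overlapped. Its log2 change was -0.15 ± 0.24 (adjusted p = 0.71), and 0.20 when the arrays were not scaled to each other. Tet2 probe 1 had levels of -3.23 and -3.0 on the 3MC+TPA arrays and -3.44 and -3.42 on the control arrays, a change of 0.31 ± 0.17 (adjusted p = 0.25). Tet2 probe 2 had levels of -3.35 and -4.12 on the 3MC+TPA arrays and -4.63 and -4.65 on the control arrays. The 3MC+TPA arrays lay above the control arrays at both Tet2 probes. Probe 2 changed by 0.90 ± 0.28 (1.87-fold, adjusted p = 0.093), was well above background on only 1 of the 2 control arrays, and its change was 0.52 without 3MC+TPA array 1 and 0.20 after normexp background correction.

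The PRC2 catalytic subunits differed in how their arrays lay. Ezh2 probe 1 had levels of 1.21 and 0.65 on the 3MC+TPA arrays and 0.78 and 1.24 on the control arrays. Ezh2 probe 2 had levels of 0.60 and 0.35 on the 3MC+TPA arrays and -0.03 and 0.59 on the control arrays. The groups overlapped at both. The log2 changes were -0.08 ± 0.27 (95% confidence interval -0.77 to 0.61, adjusted p = 0.86) and 0.20 ± 0.26 (-0.45 to 0.85, adjusted p = 0.63). As with Dnmt1 and Uhrf1, control array 2 was above control array 1, by 0.46 and 0.62, and the sign at each probe turned with the array left out.

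Ezh1 had levels of -0.38 and -0.58 on the 3MC+TPA arrays and -0.86 and -1.15 on the control arrays. Both 3MC+TPA arrays were above both control arrays, and the log2 change was 0.53 ± 0.18, or 1.44-fold (95% confidence interval 0.06 to 1.00, adjusted p = 0.12). It ranged from 0.38 to 0.67 when each array was left out in turn.

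Of the partner subunits, Suz12 was higher in 3MC+TPA cells at both probes without passing, and Eed overlapped. Suz12 probe 1 had levels of 1.71 and 1.54 on the 3MC+TPA arrays and 1.19 and 1.20 on the control arrays, a log2 change of 0.43 ± 0.16 (1.35-fold, adjusted p = 0.13). Suz12 probe 2 had levels of -0.95 and -0.74 on the 3MC+TPA arrays and -1.16 and -1.18 on the control arrays, a change of 0.32 ± 0.16 (adjusted p = 0.24). The control arrays agreed within 0.02 at both probes. Eed, the subunit that binds the methylated histone, had levels of 0.97 and 0.68 on the 3MC+TPA arrays and 0.94 and 1.01 on the control arrays. Its change was -0.15 ± 0.18 (adjusted p = 0.61), and 0.20 when the arrays were not scaled to each other.

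**Figure D3:**
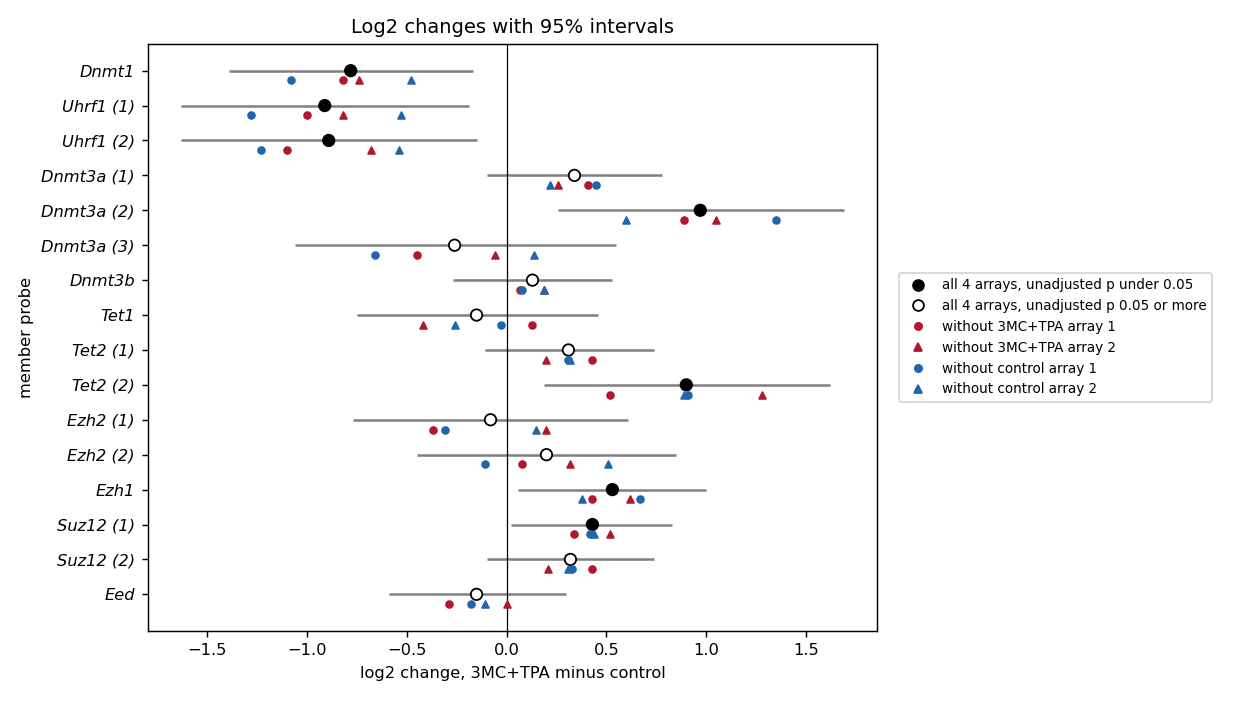
Log2 change, 3MC+TPA minus control, of each member probe with its 95% confidence interval from limma (black points, filled where the unadjusted p was below 0.05) and, as small coloured marks, the change with 1 array left out. The changes over all 4 arrays run from -0.91 for Uhrf1 probe 1 to 0.97 for Dnmt3a probe 2, and no probe reached an adjusted p below 0.05.

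The wider pathways were read from 6 lists of 66 other genes, of which 64 could be tested, each by its brightest probe. Of the 64, 9 rose in 3MC+TPA cells (14.1%) and 3 fell (4.69%), against 7.35% and 8.27% of all gene names. Their median log2 change was 0.09. Without either 3MC+TPA array 1 gene was called higher, Zfp57, and 0 lower. Without control array 1 the calls of Zfp57, Tet3, Jarid2, Rybp, Mat2a and Shmt1 were kept, and without control array 2 those of Zfp57, Tet3, Gadd45a, Zbtb38 and Shmt1.

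Among 14 other genes of DNA methylation and demethylation, 3 rose, 0 fell and the median change was 0.26. Tet3, the third Tet dioxygenase, had levels of 0.74 and 0.65 on the 3MC+TPA arrays and -0.30 and -0.61 on the control arrays. It rose 2.22-fold (log2 change 1.15 ± 0.18, adjusted p = 0.017), and both of its tested probes passed, which none of the Tet1 and Tet2 probes did. A difference between Tet3 and the other Tet genes was not tested. Zfp57, a zinc finger protein that keeps methylation at imprinted loci, had levels of -2.31 and -1.78 on the 3MC+TPA arrays and -4.41 and -4.27 on the control arrays. It rose 4.91-fold (log2 change 2.30 ± 0.23, adjusted p = 0.005), and its change was 1.11 after normexp background correction. Gadd45a, a stress-induced protein linked to DNA repair and demethylation, had levels of 2.92 and 2.45 on the 3MC+TPA arrays and 1.38 and 1.72 on the control arrays, a 2.19-fold rise (adjusted p = 0.035).

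Of 8 methyl-CpG readers, 1 rose and 0 fell, with a median change of -0.37. The one that rose was Zbtb38, a zinc finger protein that binds methylated DNA, by 2.31-fold (log2 change 1.21 ± 0.28, adjusted p = 0.048), with a change of 0.69 after normexp background correction.

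The other PRC2 subunits were 8 tested genes with a median change of 0.14, of which 1 rose and 1 fell. Jarid2, which helps bring PRC2 to its sites, had levels of 0.70 and 0.82 on the 3MC+TPA arrays and 0.01 and -0.46 on the control arrays. It rose 1.98-fold (log2 change 0.99 ± 0.21, adjusted p = 0.038) and passed at both probes. Rbbp7, a histone-binding subunit shared with other complexes, had levels of 3.72 and 3.75 on the 3MC+TPA arrays and 4.44 and 4.48 on the control arrays. It was 1.65-fold lower (log2 change -0.72 ± 0.15, adjusted p = 0.036). The change of Rbbp7 was -0.37 at its smallest under the other settings. Rbbp4, also of this list, did not pass at its brightest probe (log2 change 0.31 ± 0.16, adjusted p = 0.23 in limma). Of its 3 tested probes, 1 that is not the brightest was called higher.

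Polycomb repressive complex 1 ubiquitinates histone H2A, and 2 of its 20 tested genes rose, 0 fell and the median change was 0.10. Rybp, a subunit of the variant complexes, rose 1.99-fold (adjusted p = 0.017), at 1 of its 2 probes. Pcgf5, another variant subunit, rose 1.76-fold (adjusted p = 0.026). The 6 enzymes that remove the Polycomb marks, or their cofactors, gave 0 calls in limma at their brightest probes and 0 at an unadjusted p below 0.05, while the methods' t-test called 0 with and 1 without adjustment. Their median change was 0.13. Of the 3 tested probes of Asxl1, a cofactor of the H2A deubiquitinase Bap1, 1 that is not the brightest was called higher.

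S-adenosylmethionine is the methyl donor of both enzyme families. Of 8 genes of its cycle, 2 rose and 2 fell, with a median change of -0.02. Mat2a and Mat2b, the catalytic and regulatory subunits of the synthase that makes it, rose 1.79-fold (adjusted p = 0.031) and 1.70-fold (adjusted p = 0.033, 1 of 2 probes). Shmt1, which feeds one-carbon units into the folate cycle, was 3.05-fold lower (log2 change -1.61 ± 0.25, adjusted p = 0.016) and passed at both probes. Its change was -1.01 after normexp background correction. Mtap, which salvages methionine, was 1.63-fold lower (adjusted p = 0.044).

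**Figure D4:**
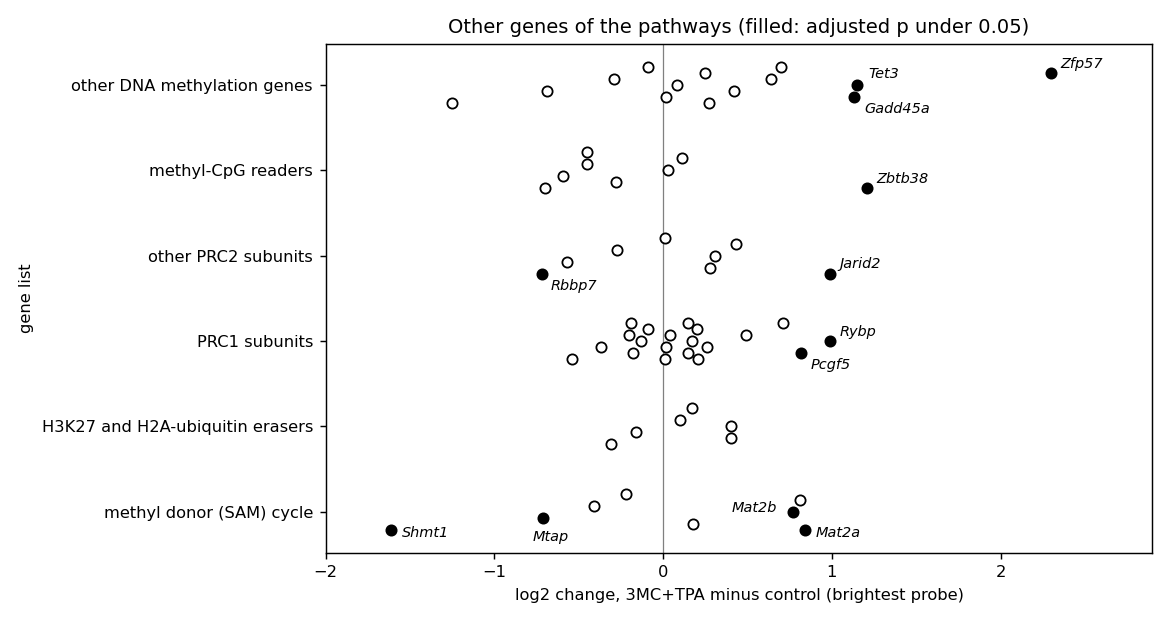
Log2 change, 3MC+TPA minus control, of the 64 other pathway genes at their brightest probe, with 1 row per list. Filled points passed an adjusted p below 0.05: 9 genes lie to the right of 0 and 3 to the left.

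Germline genes silenced by promoter methylation and the Cdkn2a and Cdkn2b genes, a known Polycomb target locus, were read as possible outputs. Of 12 germline genes, 11 were not well above background on both arrays of either group. Dazl, Hormad1 and Tex101 had 1 probe each above background on some array. The remaining gene, Rhox5, had levels of 3.52 and 3.61 on the 3MC+TPA arrays and 3.87 and 0.85 on the control arrays. Its control arrays were 3.02 apart on the log2 scale, a gap reached by 37 of 32030 probes, and it did not pass (log2 change 1.20 ± 0.95, adjusted p = 0.43). No probe of Cdkn2a or Cdkn2b was well above background on any array.

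Markers were checked against the labelled cell line. All 10 fibroblast markers were tested, with Thy1 and Fap higher in 3MC+TPA cells (7.89-fold and 3.46-fold) and Pdgfra and Pdgfrb lower (2.77-fold and 2.03-fold). Thy1 had levels of 4.77 and 5.02 on the 3MC+TPA arrays and 2.97 and 0.85 on the control arrays. Its log2 change was 2.98 ± 0.68 (adjusted p = 0.045), 4.04 without control array 1 and 1.92 without control array 2. The calls of these 4 markers, and that of Tek below, were lost without either 3MC+TPA array, and that of Pdgfrb also without control array 1. Of 8 leukocyte markers 5 were tested, and Ptprc, Itgam and Emr1 were not above background. Of 6 epithelial markers 3 were tested, without Epcam and Cdh1. For leukocyte and epithelial markers limma called 0, with 2 and 0 at an unadjusted p below 0.05, and the methods' t-test called 0 with adjustment and 1 and 0 without. Of 5 endothelial markers only Tek was tested, which passed the filter through the 3MC+TPA arrays alone. Its log2 change was 1.80 (adjusted p = 0.0087 in limma), from control levels not well above background. It was therefore given a bound of at least 1.77-fold higher in 3MC+TPA cells, which that p does not test. The bound holds for these values only: after normexp background correction the log2 change of Tek was 0.28 and did not pass (adjusted p = 0.19). Pecam1, Cdh5, Kdr and Emcn were not above background on any array.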

How the data were processed

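The intensity of each spot came from Agilent Feature Extraction 10.7.3.1, per the file headers, with the processed signal corrected for background, on a grid of build mm9. The authors' deposited log2 table equals log2 of that signal minus each array's 75th percentile, apart from a constant per array of at most 0.015. At least 61236 of 61307 probes lay within 0.01 of that constant, genes are not centred, and the direction is that of the signal. Its column medians are -4.39 and -4.35 (3MC+TPA) and -4.29 and -4.31 (control). Per the series' design text, samples were hybridised in duplicate and compared by a t test per gene, with no threshold given.

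The values used here were computed from the scanner files in the same way, with the percentile taken over non-control spots (signals of 701.3 and 747.2 for 3MC+TPA, 543.1 and 595.2 for control). The 1319 control spots and the spots marked as outliers (20 to 68 per array) were left out, and spots of 1 probe were averaged. Probes well above background on both arrays of at least 1 group were tested in R 4.3.3 by limma 3.58.1, with lmFit and 2-sided moderated statistics from eBayes and no further terms. Adjustment by Benjamini-Hochberg ran over 32030 probes, and the threshold was 0.05. On simulated data with known changes, the fit called 15 of 50 probes changed 2-fold and 50 of 50 changed 4-fold. It also called 25 unchanged probes. The simulation changed 200 of the 32030 probes, whereas the data gave 4984 calls, which makes the adjusted threshold looser in the data. The 15 of 50 therefore does not measure what share of 2-fold changes the fit finds in the data. The largest member change was 1.96-fold, and true changes of that size or smaller can still be missed. A log2 change is given with its SE from this fit. Genes of the lists were read by their brightest tested probe. The number of arrays limits the precision.

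The 4 arrays lie on 1 slide with 1 scan, so a slide block could not be fitted, and group and slide position cannot be told apart. Groups came from the sample titles. The labels do not state whether samples with the same replicate number were paired, and the main fit did not pair them. The 18 alternatives covered background correction, scaling, the filter on dim probes, the test, the threshold, the replicate block and leaving out each array. Named genes are all members, up to 4 called genes of each list with the largest change or else the gene with the largest change, and Pcna and Mki67. Not every gene this rule selects is named, and members that did not pass a filter were named to complete a count. The members and lists were chosen with earlier results of these data known. Accessions of 28136 probes were found in RefSeq's gene list for GRCm38.p6, used for names and chromosomes only.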

Additional observations from a re-analysis of the deposited data

How the results depend on the processing

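The alternatives gave 281 values for the member probes. In 253 the direction and the side of the threshold were kept, 19 came to pass it, and 9 changed sign, at 5 probes. With normexp background correction 1 member probe was called higher and 3 lower, beside 2971 and 3527 of all probes. In that setting 15 replication genes and 5 other pathway genes were called lower. With no scaling between arrays 5 members were called higher. That setting moved the median of all probes to 0.36, called 7034 probes, 19 other pathway genes higher, 1 lower, and 2 replication genes lower, and 80.1% of all calls were then higher, against 48.4% of 4984. It gave log2 changes of 0.09 for Dnmt3a probe 3, 0.20 for Tet1, 0.27 for Ezh2 probe 1, 0.20 for Eed and 0.05 for Mki67. With an intensity trend 1 member, 6 other pathway genes and 12 replication genes were called lower, beside 3427 of all probes. At an adjusted p below 0.10 the counts were 2 members higher and 2 lower, 4176 and 4033 probes, 5 other pathway genes lower and 15 replication genes lower. With no filter on dim probes 514 probes were called higher and 814 lower, with 0 other pathway and 0 replication genes in either direction, and probes above background on all 4 arrays gave 5 and 12 called lower. The methods' t-test with adjustment called 10 probes higher and 12 lower and 0 genes of these lists. Unadjusted it called 1 member higher, 7 other pathway genes lower and 1 replication gene lower, beside 3600 of all probes higher and 3688 lower. Asking also for 2-fold left 4 other pathway genes higher and 1 lower.

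With 1 array left out, the spread came from the other group's 2 arrays alone, and the lone array was assumed to vary like them. This gave 0 to 1 member higher and 0 to 3 lower, 486 to 2242 probes higher and 920 to 2578 lower, 1 to 6 other pathway genes higher and 0 to 4 lower, and 0 to 20 replication genes lower. Signs turned in these leave-outs, with log2 changes of -0.66 to 0.14 for Dnmt3a probe 3, -0.42 to 0.13 for Tet1, -0.37 to 0.20 for Ezh2 probe 1, -0.11 to 0.51 for Ezh2 probe 2, -0.30 to 2.71 for Rhox5 and -0.75 to 0.14 for Mki67. Ezh2 probe 1 was at 0.15 without control array 2. Krt14 was at -0.02 with normexp. The cause of these shifts was not tested. With the replicate number as a block, 2090 probes were called higher and 2376 lower, with 0 members, and 7 other pathway genes were called higher and 2 lower, and 6 replication genes lower. Same-numbered samples shared no deviation across probes (correlation 0.006), which cannot show whether they were paired in the experiment. Of the 18 alternatives, those that ended the call numbered 2 for Zfp57, 4 each for Tet3 and Shmt1, 6 each for Rybp and Mat2a, 7 each for Gadd45a, Zbtb38 and Pcgf5, 8 each for Jarid2 and Mat2b, 9 for Rbbp7 and 10 for Mtap.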

Other observations

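Rhox5 and Thy1 were each lower on control array 2 than on the other 3 arrays. Rhox5 had levels of 3.52 and 3.61 on the 3MC+TPA arrays and 3.87 and 0.85 on the control arrays. Without control array 1 its log2 change was 2.71, and without control array 2 it was -0.30.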
